A study of Mus musculus with 7 samples.

Results

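The 10 genes described here encode myeloid pattern recognition receptors and a companion membrane protein, out of 57126 genes in the deposited expression table. They are the C-type lectin receptors Clec4e, Clec4d, Clec4n and Clec7a, the Toll-like receptor Tlr2 with the co-receptor Cd14, the formyl peptide receptors Fpr1 and Fpr2, the immunoglobulin-family receptor Trem1, and Ms4a6c. The members were selected on measured values of these same libraries. Clec4e had the smallest p-value among genes singled out in an earlier pass over the Botox and PBS libraries, Ms4a6c was picked from the same contrast, and the others were chosen by their kinship to Clec4e or as receptors of the same cells. All Botox against PBS values of the 10 genes are therefore given as a description, with no test.

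The study sequenced RNA of 4T1 cells, a triple-negative mammary carcinoma line of the mouse made to express mCherry, sorted by fluorescence from tumors grown in the mammary fat pad of BALB/c mice, the strain the line comes from. In the Botox group (n = 4 libraries) the fat pad had received 0.3 units of botulinum toxin in 100 µL of phosphate-buffered saline (PBS), and in the PBS group (n = 3 libraries) 100 µL of PBS alone, in both cases 7 days ahead of the tumor cell injection. Each library came from its own mouse according to the labels, and all 7 share the mCherry genotype. The titles give the groups, while the labels' treatment field reads the same for every library, and no readout of the denervation itself was analysed here.

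Pattern recognition receptors let macrophages, monocytes, dendritic cells and neutrophils detect microbial molecules and products of damaged cells. Clec4e (Mincle), Clec4d (MCL) and Clec4n (Dectin-2) signal through the adaptor Fcer1g, and Clec7a (Dectin-1) through a motif in its own tail. All of these activate the kinase Syk and the Card9, Bcl10 and Malt1 complex. Tlr2 signals through Myd88, formyl peptide receptors are G protein-coupled receptors of chemotaxis, and Trem1 uses the adaptor Tyrobp to amplify inflammatory signals. In tumors such receptors are known mainly from infiltrating myeloid cells.

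Values are TPM, length-corrected transcript shares scaled to the same total in each library, from the deposited table, in which each gene's length is its genomic span with introns included, after a constant of 0.001 that had been added to every value was subtracted. Levels of different genes below are therefore per span. The reads behind each value were estimated from the step size of low values, and came to 8.57 M to 10.5 M in Botox libraries and 8.75 M to 13.6 M in PBS libraries. Libraries Botox 2 and Botox 4 stood apart. Genes with 1 to 4 estimated reads made up 3.01% of the detected genes in Botox 2 and 2.44% in Botox 4. The share was 14.0% in Botox 3, and it ranged over 20.4% to 23.8% among Botox 1 and the 3 PBS libraries. Nuclear protein-coding genes took 13.5% to 14.5% of all TPM in Botox libraries and 16.1% to 17.7% in PBS libraries. On this scale 93.8% of the 11260 tested genes (at least 1 TPM in at least 3 libraries) were lower on average in Botox libraries, and the median log2 fold change, computed from log2(TPM + 1), was -0.46. A scaling with median-of-ratios size factors, which ranged over 0.454 to 1.16 in Botox libraries and 1.22 to 1.42 in PBS libraries, moved that median to -0.04. Values below are in TPM unless size factors are named.

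The sorted cells carried markers of the tumor line and of macrophages. Krt18, an epithelial keratin, had 40.6 to 163 TPM in Botox libraries and 137 to 167 TPM in PBS libraries. Lyz2, the macrophage and neutrophil lysozyme, had 81.4, 465, 235 and 150 TPM in Botox 1 to 4 and 321, 283 and 405 TPM in PBS 1 to 3. The summed level of 15 macrophage or monocyte markers was 183 to 933 TPM in Botox libraries and 708 to 1008 TPM in PBS libraries, so the groups overlapped. In every library most of this sum was Lyz2 and Apoe. Apoe had 56.4, 273, 227 and 151 TPM in Botox 1 to 4 and 442, 241 and 319 TPM in PBS 1 to 3. Of the 15 markers 11 passed the filter. Ly6c2, a monocyte surface protein, had a value of 0 in each of the 4 Botox libraries and 0.0548 to 0.0682 TPM in PBS libraries, where this came to no more than 2.13 estimated reads. The 14 neutrophil markers summed to 6.60 to 11.1 TPM in Botox libraries and 14.4 to 21.4 TPM in PBS libraries, with 3 of them past the filter and Mmp9, a matrix protease, the strongest at 3.36 to 10.2 TPM in Botox libraries and 6.73 to 13.0 TPM in PBS libraries. After size factors the neutrophil sums overlapped, at 6.17, 12.3, 7.08 and 20.9 in Botox 1 to 4 and 10.1, 16.9 and 16.6 in PBS 1 to 3, with Botox 4 the highest of all. Ly6g, the defining neutrophil marker, was listed at 0 in 6 of the 7 libraries. In such bulk samples fewer cells of a type and less RNA per cell cannot be told apart, and the part of these marker levels in the receptor values was not tested.

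Marker sums were also taken for other cell types. The 9 dendritic cell markers summed to 10.7 to 36.9 TPM in Botox libraries and 14.4 to 64.6 TPM in PBS libraries, nearly all of it Cd74, and H2-Aa was listed at 0 in 6 of 7 libraries. The 9 T, NK and B cell markers stayed between 0.447 and 2.10 TPM in Botox libraries and between 0.971 and 2.34 TPM in PBS libraries, with Cd3d listed at 0 in all 7. The 9 fibroblast and endothelial markers summed to 3.31 to 4.23 TPM in Botox libraries and 5.32 to 8.34 TPM in PBS libraries, but after size factors they overlapped, at 2.86 to 8.65 in Botox libraries and 3.75 to 6.47 in PBS libraries. The 6 epithelial markers summed to 81.7 to 255 TPM in Botox libraries and 219 to 256 TPM in PBS libraries.

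Clec4e lies on mouse chromosome 6 (123258748 to 123266830, minus strand, build mm39 as in the deposited table), at the end of a lectin cluster. Clec4d (123239070 to 123252225, plus strand) ends 6523 bp from it, and Clec4n (123206802 to 123223981, plus strand) ends 15089 bp before Clec4d. Clec7a (129438554 to 129449743, minus strand) sits 6172 kb further along the same chromosome. The upstream 250 bases of 4 genes are shown here, for the 3 genes whose Botox libraries all lay below the PBS libraries in TPM (as did 22.4% of all tested genes) and for Clec4d, the neighbour of Clec4e that did not behave that way. The sequences are from RefSeq on build GRCm38.p6, so their coordinates differ from those of the table, and each runs 5′ to 3′ on the gene's strand up to its annotated start. Capitals mark matches to an NF-kB motif (Tlr2), a C/EBP motif (Clec4e) and a PU.1 motif (Ms4a6c).
Clec4e, chr6:123289872-123290121 (minus strand): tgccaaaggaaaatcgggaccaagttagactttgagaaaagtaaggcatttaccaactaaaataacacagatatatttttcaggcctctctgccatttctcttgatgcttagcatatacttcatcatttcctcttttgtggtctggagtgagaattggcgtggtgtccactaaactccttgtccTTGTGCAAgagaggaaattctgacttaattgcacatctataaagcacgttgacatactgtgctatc
Clec4d, chr6:123261857-123262106 (plus strand): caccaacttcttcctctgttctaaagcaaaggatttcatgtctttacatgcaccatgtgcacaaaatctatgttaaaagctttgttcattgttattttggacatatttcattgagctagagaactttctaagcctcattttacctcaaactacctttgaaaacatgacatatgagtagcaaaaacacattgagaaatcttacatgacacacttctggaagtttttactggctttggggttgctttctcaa
Tlr2, chr3:83841609-83841858 (minus strand): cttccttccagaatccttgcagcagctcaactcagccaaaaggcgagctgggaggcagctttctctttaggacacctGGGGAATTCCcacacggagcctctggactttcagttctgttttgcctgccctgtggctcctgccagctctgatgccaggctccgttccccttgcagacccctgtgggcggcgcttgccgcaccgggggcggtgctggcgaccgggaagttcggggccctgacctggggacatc
Ms4a6c, chr19:11469118-11469367 (plus strand): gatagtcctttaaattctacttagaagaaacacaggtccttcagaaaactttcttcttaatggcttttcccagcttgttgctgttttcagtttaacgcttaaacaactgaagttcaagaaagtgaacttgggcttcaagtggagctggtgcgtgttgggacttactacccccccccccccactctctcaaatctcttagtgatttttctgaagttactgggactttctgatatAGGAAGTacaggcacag
In the upstream sequence of Clec4e the match TTGTGCAA lay 66 to 59 bases before the start, written as TTGCNNAA on the other strand, and 9.56% of 32851 promoters of the same length hold this motif. The Tlr2 sequence held GGGGAATTCC at 173 to 164 bases before the start, a match to GGGNNNTTCC that 4.65% of promoters share. AGGAAGT, found in 7.69% of promoters, stood 17 to 11 bases before the start of Ms4a6c and, on the other strand, 109 to 103 bases before that of Trem1. TGANTCA, an AP-1 motif present in 6.75% of promoters, was found in 0 of the 8 member genes with an entry. All motifs were searched on both strands, and the matches did not overlap each other. Clec4n and Cd14 had no entry.

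Clec4e, which binds mycobacterial cord factor and a nuclear protein released by dying cells, was lower in every Botox library than in any PBS library. It had 0.996, 3.03, 1.13 and 2.15 TPM in Botox 1 to 4, against 4.96, 5.04 and 7.39 TPM in PBS 1 to 3. The means were 1.83 ± 0.954 TPM in Botox libraries and 5.80 ± 1.38 TPM in PBS libraries (SD, n = 4 and n = 3), a log2 fold change of -1.31 on the log2(TPM + 1) scale. The estimated reads were 57 to 203 per Botox library and 197 to 489 per PBS library. After size factors the groups overlapped, with 0.932, 3.34, 0.980 and 4.75 in Botox 1 to 4 and 3.50, 4.14 and 5.74 in PBS 1 to 3. Botox 4 then stood within the PBS values, while Botox 1 and Botox 3 stood far below them, and the log2 fold change was -0.78.

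Clec4d, which forms complexes with Clec4e at the cell surface, was the weakest of the lectins and reached 1 TPM in 0 libraries, so it did not pass the filter. Its levels were 0.268, 0.321, 0.190 and 0.592 TPM in Botox 1 to 4, against 0.464, 0.449 and 0.660 TPM in PBS 1 to 3. Botox 4 lay inside the PBS range and the other Botox libraries below it. The log2 fold change was -0.19 in TPM and 0.06 after size factors, so its sign turned with the scaling, and 15 to 80 estimated reads in Botox libraries and 30 to 71 in PBS libraries stood behind these values.

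Clec4n, a receptor for fungal mannans, had 0.740, 2.63, 1.71 and 1.25 TPM in Botox 1 to 4 and 1.97, 2.95 and 3.43 TPM in PBS 1 to 3. Botox 2 lay within the PBS values and the other Botox libraries below, and the log2 fold change was -0.58 in TPM and -0.15 after size factors. Clec7a, the beta-glucan receptor, spread most among the lectins. It had 1.65, 15.9, 2.53 and 6.52 TPM in Botox 1 to 4, against 6.03, 7.27 and 13.9 TPM in PBS 1 to 3. Botox 2 was the highest of all 7 libraries, Botox 1 and Botox 3 were the lowest, and Botox 4 lay inside the PBS range. The means were 6.66 ± 6.54 TPM in Botox libraries and 9.06 ± 4.22 TPM in PBS libraries (SD, n = 4 and n = 3). After size factors the order of the means of Clec7a turned, with 8.92 ± 8.25 in Botox libraries and 6.99 ± 3.38 in PBS libraries, and Botox 2 and Botox 4 (17.6 and 14.4) stood above the highest PBS library (10.8).

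The other genes of the Clec4 cluster were weak or not seen. Clec4a1 had 0.170 to 0.782 TPM in Botox libraries and 0.431 to 0.746 TPM in PBS libraries. Clec4a3 had 0 to 0.605 TPM in Botox libraries and 0.0939 to 0.225 TPM in PBS libraries. Clec4a2 had 0.0301, 0, 0.0266 and 0 TPM in Botox 1 to 4 and 0.255, 0.120 and 0.140 TPM in PBS 1 to 3. This came to at most 8 estimated reads in Botox libraries and 35 to 47 in PBS libraries. Its groups did not overlap in TPM, as in 22.4% of tested genes, nor after size factors, as in 3.77%. Clec4a4, Clec4b1 and Clec4b2 were listed at 0 in all 7 libraries. Within the cluster only Clec4e and Clec4n passed the filter among the lectin genes.

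Tlr2 pairs with Tlr1 or Tlr6 to sense bacterial lipopeptides. Its gene lies on chromosome 3 (83743579 to 83749075, minus strand). It had 23.5, 34.1, 23.0 and 16.3 TPM in Botox 1 to 4, against 42.1, 37.9 and 57.0 TPM in PBS 1 to 3. Every Botox library was below every PBS library, with means of 24.2 ± 7.34 TPM in Botox libraries and 45.7 ± 10.1 TPM in PBS libraries (SD, n = 4 and n = 3) and a log2 fold change of -0.91. After size factors Botox 2 and Botox 4, at 37.6 and 36.0, stood within the PBS values of 29.7, 31.1 and 44.2, while Botox 1 and Botox 3 were below them at 22.0 and 19.9.

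Cd14, which delivers bacterial lipids to Toll-like receptors, was the member with the highest level per span. Its gene lies on chromosome 18 (36858120 to 36859852, minus strand). It had 56.2, 179, 86.3 and 127 TPM in Botox 1 to 4, against 87.6, 159 and 337 TPM in PBS 1 to 3. The groups overlapped widely, PBS 1 lying beside Botox 3, and the means were 112 ± 53.2 TPM in Botox libraries and 195 ± 128 TPM in PBS libraries (SD, n = 4 and n = 3). The log2 fold change of Cd14 was -0.70 in TPM and -0.08 after size factors, and without PBS 3 it was -0.20 in TPM.

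The receptors for formylated peptides, Fpr1 and Fpr2, are neighbours on chromosome 17 that lie 3883 bp apart, at 18096733 to 18104203 (minus strand) and 18108086 to 18114215 (plus strand). Fpr1 had 1.38, 0.614, 0.356 and 0.260 TPM in Botox 1 to 4, against 1.88, 0.774 and 1.34 TPM in PBS 1 to 3. Fpr2 had 0.622, 2.58, 0.299 and 0.651 TPM in Botox 1 to 4, against 2.03, 1.47 and 2.47 TPM in PBS 1 to 3. Neither gene separated the groups, and the log2 fold changes were -0.51 for Fpr1 and -0.66 for Fpr2 in TPM, and -0.24 for Fpr1 and -0.27 for Fpr2 after size factors. The library that was high for Fpr1 in the Botox group was Botox 1, and the one that was high for Fpr2 was Botox 2. Fpr1 over Fpr2 was 2.22, 0.238, 1.19 and 0.400 in Botox 1 to 4 and 0.928, 0.527 and 0.543 in PBS 1 to 3. Fpr1 passed the filter with 3 libraries and Fpr2 with 4, and Fpr1 rested on 16 to 73 estimated reads in Botox libraries and 45 to 82 in PBS libraries. Fpr2 shares its span with Fpr3 on the same strand, which had no more than 0.00583 TPM in any library.

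Trem1, on chromosome 17 (48539796 to 48553953, plus strand), had 1.31, 7.99, 1.25 and 2.87 TPM in Botox 1 to 4, against 4.78, 5.97 and 9.64 TPM in PBS 1 to 3. Botox 2 lay inside the PBS range and the other Botox libraries below it, with means of 3.35 ± 3.18 TPM in Botox libraries and 6.80 ± 2.54 TPM in PBS libraries (SD, n = 4 and n = 3). Ms4a6c, a tetraspanning membrane protein of monocytes and macrophages on chromosome 19 (11446730 to 11459557, plus strand), separated the groups. It had 0.635, 2.66, 2.03 and 1.41 TPM in Botox 1 to 4, against 5.25, 3.44 and 5.06 TPM in PBS 1 to 3. The means of Ms4a6c were 1.69 ± 0.867 TPM in Botox libraries and 4.58 ± 0.991 TPM in PBS libraries (SD, n = 4 and n = 3), a log2 fold change of -1.10 in TPM and -0.62 after size factors. The spans of Trem1 and Ms4a6c overlap genes on the other strand, the pseudogene Gm18679 and the long noncoding RNA BE692007, and since the strand setting of the counting is not given in the sources used here, reads of these pairs may not be separated.

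**Figure D1:**
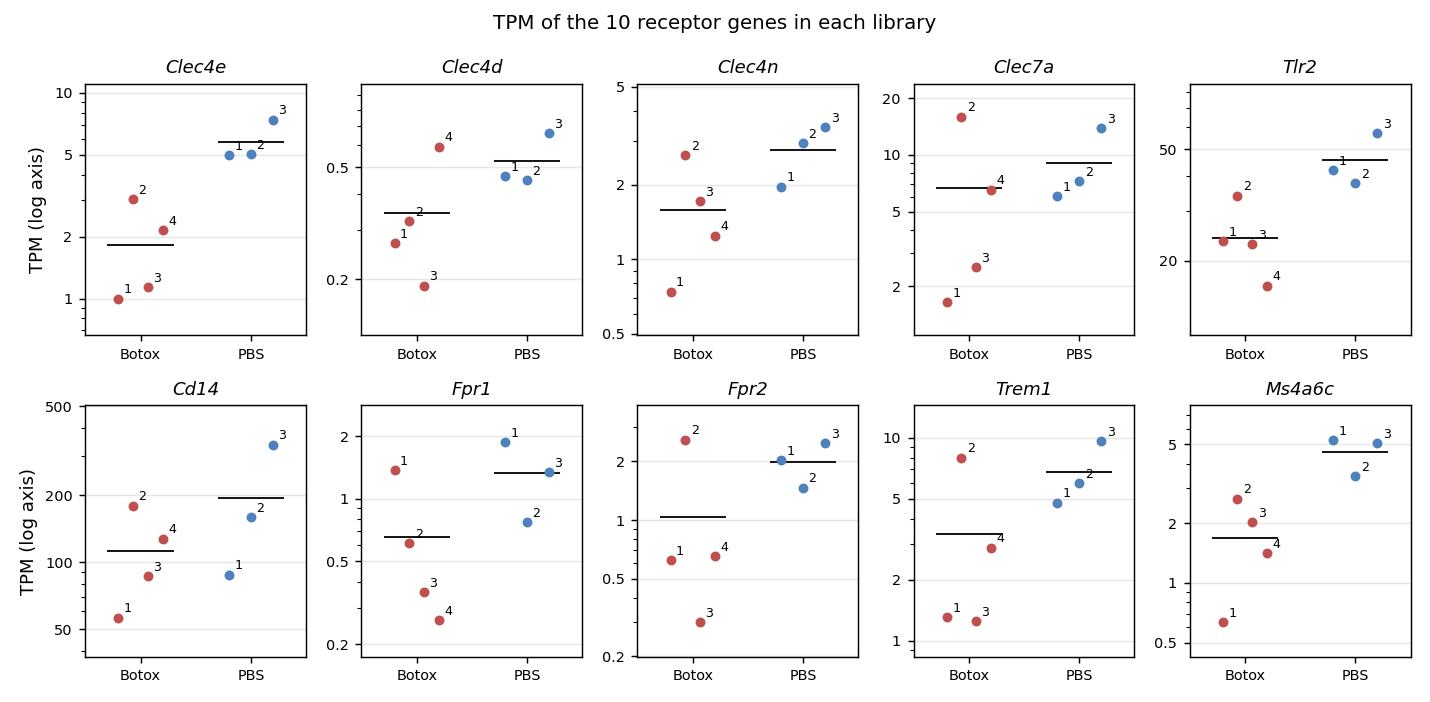
TPM (log axis) of each of the 10 genes in the 4 Botox libraries (red, left) and the 3 PBS libraries (blue, right). Each point is 1 library with its replicate number and each bar is the group mean. The Botox points of Clec4e, Tlr2 and Ms4a6c all lie below the PBS points, and Clec7a is highest in Botox 2 at 15.9 TPM.

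In TPM, 3 of the 10 genes had all Botox libraries below all PBS libraries, and the same held for 22.4% of all tested genes. After size factors this held for 0 of the 10 genes and for 3.77% of all tested genes. The values that chose the members come from this contrast, so nothing is read from these counts. The median log2 fold change of the 10 genes was -0.70 in TPM beside -0.46 for all tested genes, and -0.25 after size factors beside -0.04. The 11 tested macrophage or monocyte markers had a median of -0.77 in TPM and -0.21 after size factors, Cd68, a lysosomal macrophage protein, being at -1.04 in TPM, and the 3 tested neutrophil markers had medians of -0.77 in TPM and -0.22 after size factors. Their part in the receptor values was not tested. Among the members Clec4e had the lowest log2 fold change, followed by Ms4a6c and Trem1, and Clec4d the one nearest to 0.

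The 4 Botox libraries differed widely from each other for these receptors. After size factors Botox 1 lay below the PBS range in 9 of the 10 genes and Botox 3 in 8, whereas Botox 2 and Botox 4 each lay below it in 1 and above it in 4. Of all tested genes, 27.7%, 41.1%, 32.9% and 49.0% lay below the PBS range in Botox 1 to 4, and 33.3%, 33.1%, 38.7% and 34.7% above it. The median log2 difference from the PBS mean was -1.47, 0.31, -1.42 and 0.23 in Botox 1 to 4 and -0.30, -0.11 and 0.37 in PBS 1 to 3. On this scale the highest Botox value was further above the lowest than in the PBS group for 10 of the 10 genes, for example 11.4-fold in Botox libraries and 2.54-fold in PBS libraries for Clec7a. The same held for 91.1% of tested genes above 0 in every library, and in TPM for 9 of the 10 genes and 96.5% of those tested, with 4 libraries in 1 group and 3 in the other. Botox 2 and Botox 4 are also the libraries with few weakly detected genes, and the part of that difference in the receptor values was not tested. Leaving both out, 9 of the 10 genes had every Botox library below every PBS library in TPM, as did 28.5% of the genes tested in those 5 libraries, and the median log2 fold change of the 10 genes was -1.14 beside -0.15 for all tested genes. Fpr1 was the exception, as Botox 1 had 1.38 TPM against 0.774 TPM in PBS 2. The libraries left out are those with member medians of 0.31 and 0.23, and those kept had -1.47 and -1.42. Leaving them out thus lowers the Botox levels of the members as a set, and nothing is read from the values without them.

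**Figure D2:**
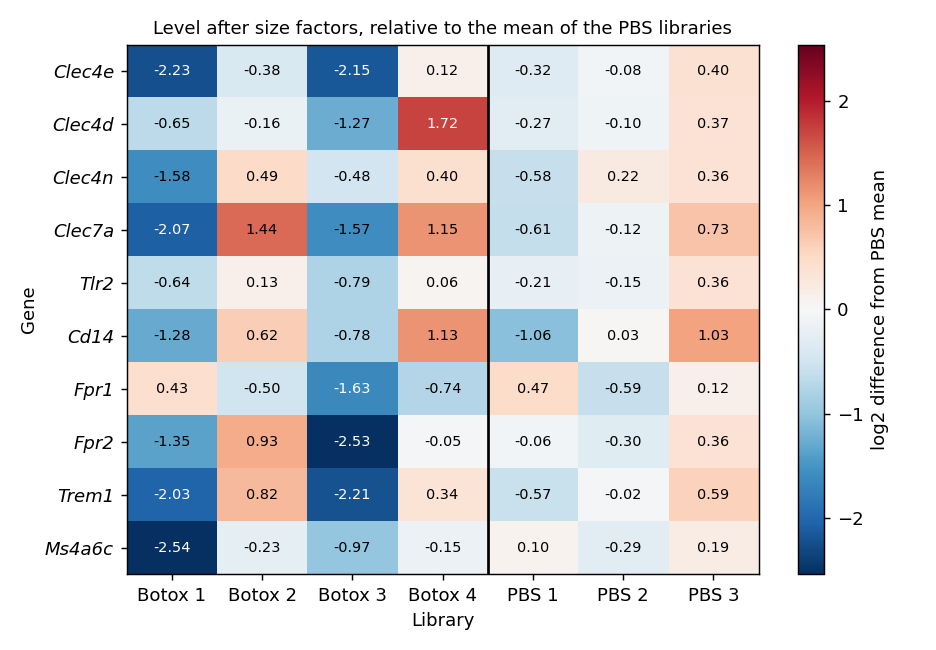
Level of each of the 10 genes (rows) in each library (columns, Botox left of the line and PBS right) after size factors, as the difference in log2 level from the mean of the PBS libraries. Blue is lower and red higher than that mean. Botox 1 and Botox 3 are blue in nearly every row, Clec4e at -2.23 and -2.15, whereas Botox 4 reaches 1.72 for Clec4d.

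Ratios within a library do not depend on the scaling between libraries. Clec4e over the geometric mean of the other 9 genes was 0.527, 0.583, 0.576 and 0.807 in Botox 1 to 4, against 0.994, 1.05 and 0.958 in PBS 1 to 3. All Botox ratios were below all PBS ratios, which 0.124% of the tested genes showed on the same scale, and since Clec4e was chosen by this contrast the count is a description. The 10 genes were low in Botox 1 and Botox 3, with median log2 differences from the PBS mean of -1.47 and -1.42 after size factors. Dividing by such genes raises most others in these libraries and so lowers the share, and nothing is read from it. Clec4e over Clec4d was 3.71, 9.44, 5.97 and 3.64 in Botox 1 to 4 and 10.7, 11.2 and 11.2 in PBS 1 to 3. The PBS ratios of these neighbours lay close together, and the Botox ratios were lower and more variable. Clec4d rested on 15 to 80 estimated reads in Botox libraries and 30 to 71 in PBS libraries, so its ratios are imprecise. In TPM a wider fold range in the Botox group held for 96.5% of tested genes above 0 in every library. How many genes separate the groups when set over Clec4d was not counted, and Clec4e was chosen by this contrast. Clec7a over Clec4e was 1.66, 5.26, 2.23 and 3.03 in Botox 1 to 4, against 1.21, 1.44 and 1.88 in PBS 1 to 3, and here Botox 1 lay among the PBS values. Clec4d over the geometric mean of its other 9 genes was 0.123, 0.0481, 0.0791 and 0.192 in Botox 1 to 4, against 0.0714, 0.0715 and 0.0653 in PBS 1 to 3. It thus stood above the PBS values in 3 Botox libraries. Clec4e is among the genes of that mean, so a lower Clec4e raises this ratio, and nothing is read from its direction. With each member set over its other 9 genes, Cd14, Clec7a, Clec4n and Tlr2 were also higher on average in Botox libraries. Clec4e, Ms4a6c, Trem1, Fpr2 and Fpr1 were lower.

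Set against the macrophage and monocyte markers, the difference was smaller. Clec4e per 1000 TPM of the 15 markers was 5.45, 3.25, 1.75 and 5.25 in Botox 1 to 4, against 5.04, 7.11 and 7.34 in PBS 1 to 3, so the groups overlapped. Most of this marker sum was Apoe and Lyz2, which is also a neutrophil gene. Ms4a6c per 1000 TPM of these markers was 3.48, 2.85, 3.13 and 3.45 in Botox 1 to 4, against 5.33, 4.86 and 5.02 in PBS 1 to 3, with no overlap. Ms4a6c was picked from this contrast, and the share of all tested genes with no overlap on this scale was not computed. No other member had every Botox library below every PBS library on it. Clec4d was at 1.47 in Botox 1 and 1.44 in Botox 4, above the highest PBS library at 0.655. Tlr2 per 1000 TPM of these markers was 129 in Botox 1, 35.5 to 39.8 in the other Botox libraries and 42.8 to 56.6 in PBS libraries. Botox 1, which had the lowest macrophage marker sum, thus had more Tlr2 than any PBS library on this scale.

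**Figure D3:**
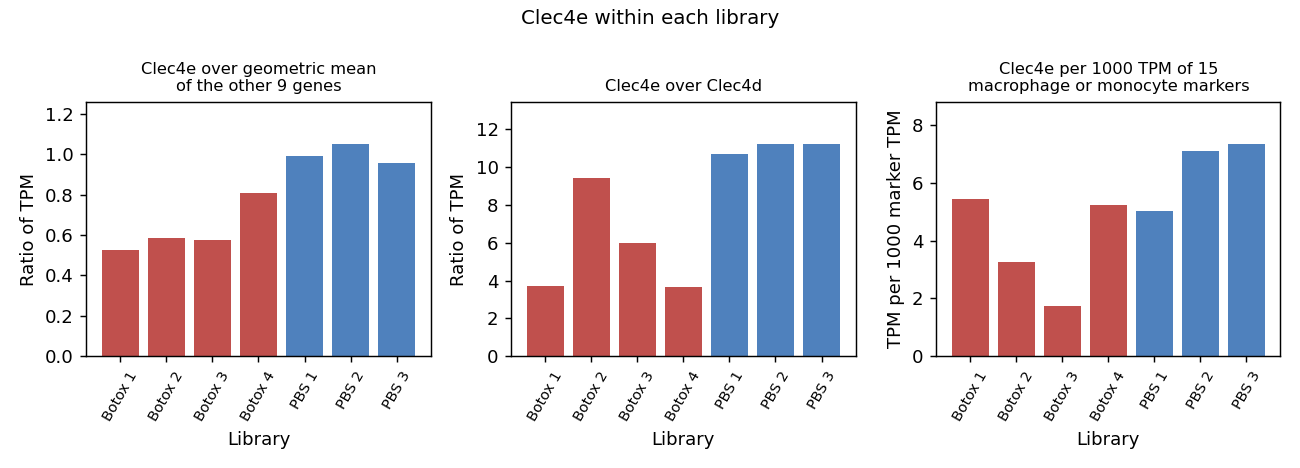
Clec4e within each library, as the ratio of its TPM to the geometric mean of the other 9 genes (left), its ratio to Clec4d (middle) and its TPM per 1000 TPM of 15 macrophage or monocyte markers (right). Each bar is 1 library, Botox in red and PBS in blue. The Botox bars are below the PBS bars in the left and middle panels, and in the right panel Botox 1 and Botox 4 stand above PBS 1. Clec4e was chosen by this contrast, so the panels are a description. Clec4d in the middle panel rested on 15 to 80 estimated reads in Botox libraries and 30 to 71 in PBS libraries.

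The sign of the fold changes held under most of the settings tried. Of 140 fold changes of the 10 genes under other settings, 138 were negative, the exceptions being Clec4d with size factors (0.06) and with quantile normalization (0.15). For these genes the setting with no filter repeats the main values, and the replicate block repeats those without Botox 4. All settings draw on the same 7 libraries, so the 140 values are not separate checks. Of all tested genes, 55.8% were negative with size factors, 59.2% with quantile normalization and 72.5% to 95.1% under the other settings. The count of negative signs is therefore a description. Their size varied with the setting. With a pseudocount of 0.1 TPM in place of 1 TPM, Clec4d was at -0.56, Fpr1 at -1.07 and Fpr2 at -1.23. Clec4e was at -1.31 in TPM, -0.78 after size factors and -1.70 in TPM without Botox 2 and Botox 4. Clec7a was at -0.70 in TPM, -0.12 after size factors and -1.64 without Botox 2 and Botox 4. Trem1 was at -1.04 in TPM, -0.50 after size factors and -1.73 without these libraries. Tlr2 was at -0.91 in TPM, -0.30 after size factors and -0.92 without them.

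**Figure D4:**
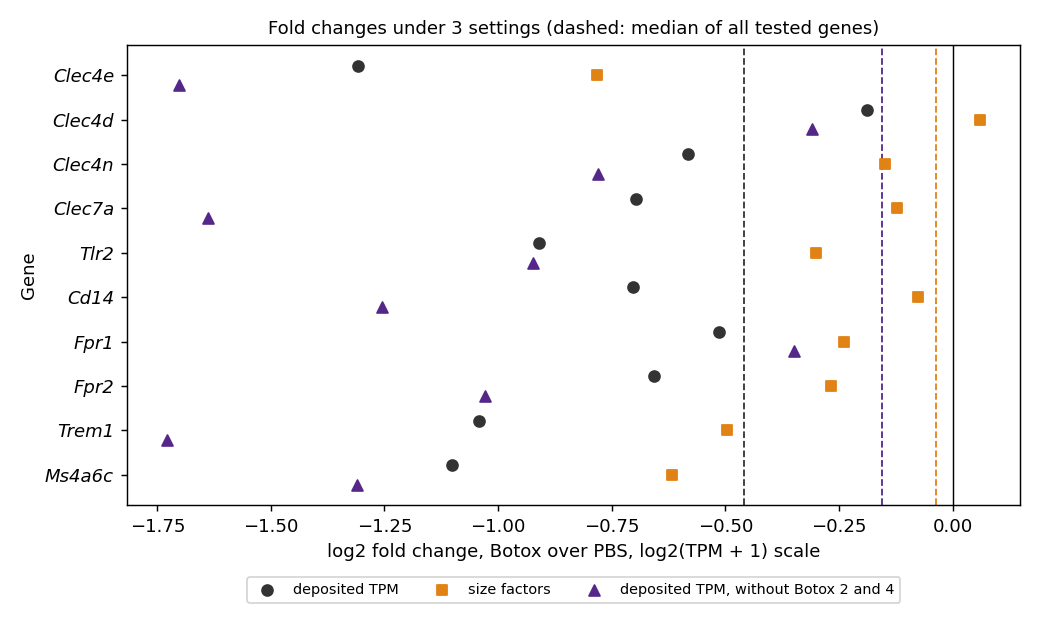
Log2 fold change of each of the 10 genes, Botox over PBS on the log2(TPM + 1) scale, from deposited TPM (circles), after size factors (squares) and from deposited TPM without Botox 2 and Botox 4 (triangles). Dashed lines give the median of all tested genes in the same colours, at -0.46, -0.04 and -0.15. Clec4e has the lowest value of the 10 in TPM (-1.31) and after size factors (-0.78), and Trem1 the lowest without Botox 2 and Botox 4 (-1.73).

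Genes that act with these receptors were examined in the fit across all genes. With limma on log2(TPM + 1) and Benjamini-Hochberg adjustment, 0 of 11260 genes passed an adjusted p of 0.05 in either direction (0% each), the lowest adjusted p being 0.177. At an unadjusted p of 0.05, 830 genes (7.37%) were lower and 15 (0.133%) higher in Botox libraries. The fold changes of partner genes are therefore given as values, with none past the threshold.

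Of 10 genes of lectin and adaptor signaling, 5 were tested, with 0 past the threshold and a median log2 fold change of -0.42 in TPM, beside -0.46 for all tested genes, and of -0.10 after size factors, beside -0.04. The lowest p-values belonged to Malt1, the paracaspase of the Card9 complex (log2 fold change -0.93 ± 0.38, SE, limma adjusted p = 0.42), and to Syk (-0.69 ± 0.34, SE, limma adjusted p = 0.42). Malt1 had 2.22, 5.20, 1.27 and 2.10 TPM in Botox 1 to 4, against 4.06, 5.38 and 7.70 TPM in PBS 1 to 3. The kinase Lyn was at -0.42 ± 0.24 (SE, limma adjusted p = 0.42). Both adaptors had low levels per span. Fcer1g had 0.147, 0.252, 0.243 and 0 TPM in Botox 1 to 4 and 0.170, 0.188 and 0.229 TPM in PBS 1 to 3. Tyrobp had 0.111, 1.32, 0.522 and 0.203 TPM in Botox 1 to 4 and 0.852, 0.974 and 1.57 TPM in PBS 1 to 3. The longest exon in GENCODE M21 was 356 bp for Fcer1g and 234 bp for Tyrobp, against 1908 bp for Clec4e and 2518 bp for Tlr2. The part of exon length in these levels was not tested.

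Of 22 genes of Toll-like receptor signaling, 15 were tested, with 0 past the threshold and a median log2 fold change of -0.40 in TPM. After size factors the median was 0.03 and 7 of the 15 were negative, so the direction of this list turned with the scaling. In TPM Tab2, which links the receptor complex to the kinase Map3k7, was at -0.81 ± 0.36, Traf6 at -0.68 ± 0.31 and the adaptor Tirap at -0.59 ± 0.34 (SE, limma adjusted p = 0.42 each). Tlr1, a partner of Tlr2, had 1.95, 6.83, 3.81 and 2.06 TPM in Botox 1 to 4 and 3.97, 4.47 and 8.02 TPM in PBS 1 to 3. Tlr6, the other partner, had 1.63, 6.13, 3.30 and 1.05 TPM in Botox 1 to 4 and 2.92, 2.48 and 2.96 TPM in PBS 1 to 3. Both partners were highest within the Botox group in Botox 2, and their groups overlapped, unlike those of Tlr2. Tlr4, which Cd14 serves, did not pass the filter, with 0.336 to 0.998 TPM in Botox libraries and 0.940 to 1.15 TPM in PBS libraries.

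Other receptor lists gave no call either. Of 21 other pattern recognition receptors 13 were tested, with a median log2 fold change of -0.63 in TPM and -0.14 after size factors, and the lowest p-values belonged to the endosomal receptors Tlr8 (-0.85) and Tlr3 (-0.83) and to the DNA sensor Cgas (-0.69), at a limma adjusted p of 0.42 each. Of 13 other myeloid lectins 2 were tested, Clec2d at -0.63 ± 0.26 (SE, limma adjusted p = 0.42) and Clec5a at -0.48 ± 0.49 (SE, limma adjusted p = 0.50). None of the 5 other formyl peptide receptor genes reached the filter, and 4 of them were listed at 0 in all libraries. Of 10 other Ms4a genes 2 were tested, Ms4a6d at -0.97 ± 0.33 (SE, limma adjusted p = 0.42) and Ms4a6b at -0.43 ± 0.32 (SE, limma adjusted p = 0.43). Ms4a6d had 0.348, 1.96, 0.994 and 0.251 TPM in Botox 1 to 4, against 2.60, 2.03 and 2.87 TPM in PBS 1 to 3. Like Ms4a6c, it was lower in every Botox library than in any PBS library in TPM, and after size factors it overlapped, Botox 2 being at 2.17 against 1.83 in PBS 1.

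Ligands and products of the receptors also gave 0 genes past the threshold. Of 10 ligands 6 were tested, with a median log2 fold change of -0.56 in TPM and -0.13 after size factors, and S100a9, an alarmin of myeloid cells (-1.08 ± 0.39), Hmgb1 (-0.73 ± 0.27) and the matrix proteoglycan Bgn (-0.55 ± 0.27) had the lowest p-values (SE, limma adjusted p = 0.42 each). Of 16 inflammatory output genes 14 were tested, with a median log2 fold change of -0.59 in TPM and -0.01 after size factors. Cxcl2, a neutrophil chemoattractant, had 47.4, 176, 58.8 and 65.6 TPM in Botox 1 to 4, against 178, 192 and 312 TPM in PBS 1 to 3. Its log2 fold change was -1.53, with an SE of 0.51 and an adjusted p of 0.42 in limma. In TPM every Botox library was below every PBS library for Cxcl2, with Botox 2 close to PBS 1. After size factors its log2 fold change was -0.91 and the groups overlapped, Botox 2 at 194 and Botox 4 at 145 standing above PBS 1 at 125. The cytokine Il1a was at -1.22 ± 0.52 and the chemokine Cxcl3 at -0.90 ± 0.41 (SE, limma adjusted p = 0.42 each).

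The genes whose profile over the 7 libraries was most like that of Clec4e were ranked by the root mean square difference of log2 levels after size factors, each centred on its mean, among 7232 protein-coding genes that are not members. Evi2b, a leukocyte membrane protein, was nearest at 0.20, followed by the cytokine Tnfsf14 at 0.25, the chemokine receptor Cxcr4 at 0.28, Cxcl2 at 0.30 and Malt1 at 0.31. Next came the phagocyte oxidase subunit Cybb at 0.32, pleckstrin (Plek) and the inhibitory antibody receptor Fcgr2b at 0.33 each, and the collagen crosslinking enzyme Lox and Tent5a at 0.34 each. Evi2b had 0.889, 3.24, 0.687 and 1.62 TPM in Botox 1 to 4, against 2.93, 3.70 and 5.06 TPM in PBS 1 to 3. In TPM Botox 2 was the highest Botox library for Evi2b, as it was for Clec4e, Clec7a and Trem1. After size factors, the scale of the ranking, Clec4e was highest within the Botox group in Botox 4, at 4.75 against 3.34 in Botox 2. Of the members, Ms4a6c would take place 6 in this ranking, Tlr2 place 13, Trem1 place 24, Clec4n place 61, Fpr2 place 62, Cd14 place 603, Clec7a place 1054 and Fpr1 place 3210. Clec4d was not ranked because it did not pass the filter.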

How the data were processed

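The labels name ribosomal RNA depletion, a stranded kit and paired-end sequencing of FACS-sorted cells from 7 mice. The authors deposited TPM values for 57126 genes, with length taken as the genomic span and 0.001 added. Bowtie2 2.2.5, SAMtools, DESeq2 and build mm39 are listed in the submitters' processing notes with no role, and the sources used here do not give the counting method or strand setting. Here 0.001 was subtracted, reads were estimated from the steps of low values (88.6% to 90.1% of values under 20 reads were whole within 0.1), and log2(TPM + 1) of 11260 genes (3 or more libraries at 1 TPM or above) was fitted with limma 3.58.1 in R 4.3.3 (group only, trend, two-sided, Benjamini-Hochberg), after a test on simulated data. A block on replicate number, with Botox 4 in a block of its own, was an alternative, as were other scalings, pseudocounts, filters and left-out libraries. Median-of-ratios size factors used 14051 genes above 0 in every library. The members and lists were chosen with earlier results of these data known. Named genes were all members, up to 3 tested genes with the smallest p of each pathway list, leading and absent markers, and the 10 profiles nearest to Clec4e. Partner and cluster genes given beside a member (Fcer1g, Tyrobp, Tlr1, Tlr4, Tlr6, Cd68 and the Clec4 neighbours) were named after their values were seen. The deposited pathway table was not used, since it names no genes.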

Additional observations from a re-analysis of the deposited data

Results flagged for a closer look

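Among 40 genes examined for a Botox library far from the other 3, 5 stood out. Chance would flag about 1 in 20 groups if the values were normally distributed, which TPM values need not be. The genes were chosen with these data known and share the same libraries. The share of all tested genes flagged was not computed, so nothing is read from the count. Fpr2 had 2.58 TPM in Botox 2, against 0.299 to 0.651 TPM in the other Botox libraries. Botox 2 also stood apart for Cxcl2 (176 TPM, others 47.4 to 65.6 TPM), for Cxcl3 (5.64 TPM, others 1.10 to 1.76 TPM) and for Syk (2.14 TPM, others 0.802 to 1.01 TPM). Hmgb1 was low in Botox 4 at 0.143 TPM, against 0.688 to 0.765 TPM in the other Botox libraries. The PBS group, with 3 libraries, was not examined in this way.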

How the results depend on the processing

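The count of genes past an adjusted p of 0.05 in limma was 0 in each direction. It became 1 higher with size factors and 1 with quantile normalization, and 22 lower with no filter on low values. Leaving out 1 library at a time gave 0 to 3 higher and 0 to 104 lower, with 3 and 104 when Botox 1 was left out. The median log2 fold change of the 10 members minus that of all genes was -0.24, went to -0.99 without Botox 2 and Botox 4, and ranged from -0.56 to -0.05 with 1 library left out, the smallest without Botox 3 (-0.05) and without PBS 3 (-0.06). The members with every Botox library below every PBS library numbered 3 of 10, then 0 with size factors, 0 with quantile normalization, 9 without Botox 2 and Botox 4, and 3 to 6 with 1 library left out (6 without Botox 2). Of all tested genes 22.4% did so in TPM, 4.53% with quantile normalization, 28.5% without Botox 2 and Botox 4, and 23.0% to 43.9% with 1 library left out (27.1% without Botox 2). The cause of these changes was not tested. Botox 2 and Botox 4 are the Botox libraries in which the members were high after size factors, so the values without both are a description. Same-numbered libraries come from separate mice, and the correlations of their deviations were 0.10, -0.03 and -0.19. Those of different-numbered libraries ranged from -0.15 to 0.17. With so few libraries this cannot decide whether same-numbered libraries shared a batch. In the fit with a replicate block, Botox 4 had a block of its own and so did not bear on the fold changes. The members' fold changes were those found without Botox 4, Clec4e being at -1.38 in both. The median difference was -0.52 in both, and 0 genes were called in each direction. Members with few estimated reads (Clec4d and Fpr1, under 100 in every library) are the least precise.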
